A study of Mus musculus with 12 samples.

Results

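The genes of amyloid precursor protein processing were followed in the cortex of aged E4FAD mice, together with Thy1, the gene whose promoter drives the transgenes of these animals. The 9 genes were taken by their mouse Ensembl identifiers from a table of 50563 genes, and all 9 passed the low-count filter of edgeR, as did 15688 genes in all. They are App, its paralogs Aplp1 and Aplp2, the beta-secretase Bace1, the gamma-secretase subunits Psen2, Ncstn and Aph1a, the alpha-secretase Adam10, and Thy1.

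All 12 mice carried APOE4 on both alleles and the 5FAD transgenes (the 5xFAD line) on 1 allele, with no mouse lacking the transgenes. The 7 CTRL mice received vehicle with antioxidants (alpha-tocopherol and palmitoyl ascorbic acid), and the 5 DPAn-6 mice received 700 mg/kg of DPAn-6, an omega-6 docosapentaenoic acid, daily by oral gavage for 3 weeks. At 12 months of age there were 2 CTRL and 2 DPAn-6 mice, and at 14 months 5 CTRL and 3 DPAn-6 mice. The methods of the study put 4 females and 3 males in CTRL and 3 females and 2 males in DPAn-6, and each mouse gave 1 library of poly(A) RNA from cortex.

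Amyloid precursor protein is a membrane protein of neurons that is cut along competing routes. Cleavage by an alpha-secretase such as ADAM10 sheds its outer part without making amyloid-beta, whereas cleavage by BACE1 followed by gamma-secretase releases amyloid-beta. In 5xFAD mice human transgenes with familial Alzheimer's disease mutations, one of them encoding APP, are expressed in neurons from a Thy1 promoter cassette, most strongly in deep layer projection neurons. APOE4 in these animals is the human gene at the mouse locus. The reads were aligned to the mouse genome alone, so reads of the human APP transgene that align to mouse App, and cassette reads that align to Thy1, cannot be told apart from reads of the mouse genes. In bulk cortex, fewer cells of a type and less RNA per cell cannot be told apart either.

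Promoter windows are shown for App, Aplp1 and Aplp2 because these paralogs are the genes whose levels are compared with each other below. RefSeq windows of GRCm38.p6 matched 7 of the 9 genes, with 8 windows in all, and Bace1 and Thy1 are named only. Each window is the 250 bases before the RefSeq start, read along the gene's strand, which is the minus strand for all 3. Capitals mark the GC box, GGGCGG on either strand. The App window is printed without its last 59 bases, which GENCODE M21 places inside the gene.
App, chr16:85173767-85173957: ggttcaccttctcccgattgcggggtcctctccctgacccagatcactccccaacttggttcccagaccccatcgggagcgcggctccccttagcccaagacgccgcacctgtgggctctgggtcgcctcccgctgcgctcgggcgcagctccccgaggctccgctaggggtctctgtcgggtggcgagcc
Aplp1, chr7:30445583-30445832: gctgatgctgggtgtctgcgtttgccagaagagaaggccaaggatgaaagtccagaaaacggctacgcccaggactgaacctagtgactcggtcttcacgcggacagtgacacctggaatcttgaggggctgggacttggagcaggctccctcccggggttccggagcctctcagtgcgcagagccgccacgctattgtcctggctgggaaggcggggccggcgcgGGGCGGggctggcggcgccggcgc
Aplp2, chr9:31211849-31212098: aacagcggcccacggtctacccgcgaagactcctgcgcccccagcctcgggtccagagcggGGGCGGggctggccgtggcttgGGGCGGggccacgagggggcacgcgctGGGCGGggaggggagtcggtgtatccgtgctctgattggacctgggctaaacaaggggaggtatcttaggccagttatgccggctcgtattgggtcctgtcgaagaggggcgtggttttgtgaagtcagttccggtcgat

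Over the full 250 bases, GGGCGG occurred 1 time for App, in the bases not printed, 1 time for Aplp1 and 3 times for Aplp2. It occurred in 32.7% of all 32851 RefSeq promoter windows of the same length, and in 6 of the 8 windows of the members. Both windows of Psen2 lay wholly inside the gene in GENCODE M21, among them a window with 2 matches. Of the Ncstn window, 46 bases lay inside the gene. The TATA box letters TATAAA, on either strand, were in none of the 8 windows and in 12.4% of all windows. The windows of App, Aplp1 and Aplp2 had a GC content of 70.8%, 66.0% and 66.4%, against a median of 52.4% over all windows. These matches describe the letters only.

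Total counts ranged from 15339098 to 19500154 in CTRL and from 15208803 to 26520251 in DPAn-6 mice. CTRL replicate 3 stood apart. The median correlation of its log2 CPM with the other CTRL libraries was 0.962, against 0.985 to 0.991 for each of the other 11 libraries with its own group. Counts of Ttr, the transthyretin gene made by choroid plexus, were 23880, 2558 and 18344 in CTRL replicates 2, 3 and 5 and at most 420 in the other 9 libraries. Xist, which marks libraries of female mice, was at 10669 counts or more in 4 CTRL and 3 DPAn-6 libraries and at most 83 in the rest. All 3 Xist-high DPAn-6 mice were 14 months old and both Xist-low ones were 12 months old, so sex and age cannot be told apart within DPAn-6. Cortical neuron markers were abundant in every library, with a summed level over 12 genes of 14111 to 18583 CPM in CTRL and 14620 to 15212 CPM in DPAn-6 mice.

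The level of each gene was first compared per kilobase of annotated exon, as CPM, the count scaled to a common library total, divided by the exon length in GENCODE M21. Thy1, a GPI-anchored surface protein of neurons, had the highest level, with 823 ± 166 CPM per kb in CTRL (SD, n = 7). Aplp1, the paralog of App expressed mainly in neurons, followed with 422 ± 39.5 CPM per kb and App itself with 287 ± 33.7 CPM per kb. Aplp2, the more widely expressed paralog, had 118 ± 9.03 CPM per kb. The ranges of these 4 genes over the 12 mice did not overlap. The order was the same with the length of the longest coding transcript, on which Aplp1 was above App in 11 of the 12 mice. The order of App and Aplp1 rests on the annotated lengths. App has 12996 exon bases and 8167 in the longest of 6 coding transcripts, and Aplp1 has 3017 and 2343. Before division by length App had 3730 CPM and Aplp1 1273 CPM in CTRL. Which transcripts were present was not measured, and a shorter App transcript would raise its level per kb.

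The secretase genes lay far below their substrate on the same scale. Ncstn, which encodes the nicastrin subunit, had 20.2 ± 0.479 CPM per kb in CTRL, Adam10 had 18.1 ± 4.04 CPM per kb and Bace1 had 17.2 ± 1.12 CPM per kb (SD, n = 7). These 3 neighbours were not separated, since Ncstn was above Adam10 in 10 of 12 mice and Adam10 was above Bace1 in 3 of 12. Psen2, a catalytic subunit, had 3.37 ± 0.454 CPM per kb and Aph1a, a scaffold subunit, had 2.04 ± 0.332 CPM per kb. Psen2 was above Aph1a in all 12 mice. By counts alone App was the gene with rank 5, Thy1 rank 11 and Aplp1 rank 53 of the 15688 genes, while Aph1a had only 99 to 174 counts per mouse.

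**Figure D1:**
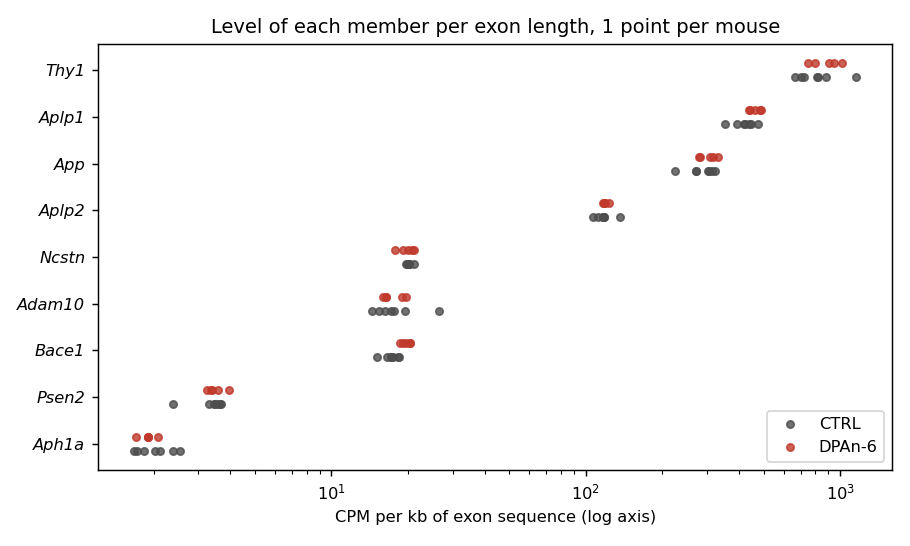
Level of the 9 genes as CPM per kilobase of annotated exon on a log axis, with 1 point per mouse, 7 CTRL mice in grey and 5 DPAn-6 mice in red. Thy1, Aplp1, App and Aplp2 occupy separate ranges between 106 and 1158 CPM per kb, Ncstn, Adam10 and Bace1 share 1 range, and Psen2 and Aph1a lie lowest.

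The main comparison asked whether the mRNA of these genes differed between DPAn-6 and CTRL mice. At an adjusted p below 0.05 in edgeR's quasi-likelihood test, 0 of the 9 genes passed, against 1.55% of all genes tested. At an unadjusted p below 0.05, 1 of the 9 passed, against 14.5% of all genes, and that gene was Bace1. Of the 9 log2 fold changes 5 were above 0 and 4 were below 0, with a median of 0.038, against a median of −0.0047 over all genes tested. A share of 9 genes this close to the background is not a result about them as a list.

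App (ENSMUSG00000022892, GRCm38 chromosome 16, 84949685 to 85173766) had 4062, 2924, 4201, 3918, 3523, 3526 and 3954 CPM in CTRL replicates 1 to 7 and 4018, 4110, 3651, 3607 and 4292 CPM in DPAn-6 replicates 1 to 5. CTRL replicate 2 was the lowest mouse and DPAn-6 replicate 5 the highest, and the groups overlapped. Its log2 fold change was 0.05 with a standard error of 0.08 (edgeR, adjusted p = 0.839), and the two-sided exact permutation test of log2 CPM gave p = 0.407. Removing each library's trend on exon length and GC content moved the log2 fold change of App to 0.16 (edgeR, unadjusted p = 0.0508, adjusted p = 0.254), and over all 25 alternatives it ran from −0.06 to 0.20.

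Aplp1 (ENSMUSG00000006651, chromosome 7, 30434982 to 30445535) had 1322, 1277, 1067, 1190, 1266, 1352 and 1438 CPM in CTRL replicates 1 to 7 and 1476, 1336, 1317, 1397 and 1455 CPM in DPAn-6 replicates 1 to 5. All 5 DPAn-6 mice were above the CTRL mean of log2 CPM, but only 2 were above every CTRL mouse. The log2 fold change was 0.11 with a standard error of 0.06 (edgeR, adjusted p = 0.468), and the exact permutation p was 0.0631.

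Aplp2 (ENSMUSG00000031996, chromosome 9, 31149557 to 31211815) had 689, 625, 797, 692, 655, 691 and 686 CPM in CTRL replicates 1 to 7 and 698, 693, 725, 691 and 686 CPM in DPAn-6 replicates 1 to 5. The DPAn-6 mice lay inside the CTRL range, whose highest value came from replicate 3. The log2 fold change was −0.01 with a standard error of 0.07 (edgeR, adjusted p = 0.971, exact permutation p = 0.686), and its sign turned under several alternatives.

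Bace1 (ENSMUSG00000032086, chromosome 9, 45838580 to 45864399), which encodes the enzyme of the first amyloid-beta cut, had 109, 105, 96.2, 111, 116, 109 and 117 CPM in CTRL replicates 1 to 7. In DPAn-6 replicates 1 to 5 it had 119, 121, 125, 129 and 129 CPM. Each of the 5 DPAn-6 mice was above all 7 CTRL mice, and no other of the 9 genes separated the groups. Groups without overlap in either direction were seen for 3.22% of all genes tested and with DPAn-6 higher for 1.73%.

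The mean log2 CPM of Bace1 was 6.77 ± 0.10 in CTRL (SD, n = 7) and 6.96 ± 0.06 in DPAn-6 mice (SD, n = 5), and the two-sided exact permutation test gave p = 0.00253, where the smallest p these groups allow is 0.00126. In the fit across all genes the log2 fold change was 0.17 with a standard error of 0.06, or 12.4% higher, and the adjusted p of 0.172 (edgeR, unadjusted p = 0.0104, rank 945 of 15688) missed the threshold. The call was past the threshold with DESeq2 (adjusted p = 0.0391) and after removal of the length and GC trend (adjusted p = 0.0397). With each mouse left out in turn the log2 fold change stayed between 0.15 and 0.19, and over all 25 alternatives the adjusted p ran from 0.0391 to 0.862.

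Bace1 shares 32.5% of its exon bases with genes on the opposite strand, Rnf214, Gm16536 and Gm49338, and whether the counting used strand is not given in the sources used here. These 3 genes were looked at after the value of Bace1 was seen. Their log2 fold changes were −0.10, 0.10 and 0.13, with edgeR adjusted p-values of 0.645, 0.787 and 0.509, and their part in the Bace1 difference was not tested.

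Adam10 (ENSMUSG00000054693, chromosome 9, 70678997 to 70780229) had 86.5, 71.0, 130, 95.8, 84.5, 75.9 and 80.0 CPM in CTRL replicates 1 to 7 and 78.4, 93.4, 80.8, 96.4 and 80.8 CPM in DPAn-6 replicates 1 to 5. CTRL replicate 3 was the highest mouse and CTRL replicate 2 the lowest, and every DPAn-6 mouse lay between them. For Adam10 the log2 fold change was −0.08 with a standard error of 0.13 (edgeR, adjusted p = 0.852, exact permutation p = 0.865), and it became 0.05 without CTRL replicate 3.

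Within each library, log2 CPM of Bace1 minus that of Adam10 sets the beta-secretase beside the alpha-secretase. It was 0.33, 0.57, −0.44, 0.21, 0.46, 0.53 and 0.55 in CTRL replicates 1 to 7 and 0.60, 0.38, 0.63, 0.42 and 0.68 in DPAn-6 replicates 1 to 5. The groups overlapped, and only CTRL replicate 3 was below 0. This difference was not tested.

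Psen2 (ENSMUSG00000010609, chromosome 1, 180227004 to 180263438) had 15.2, 14.9, 10.3, 15.8, 14.4, 15.5 and 16.0 CPM in CTRL replicates 1 to 7 and 14.6, 14.7, 15.5, 14.0 and 17.2 CPM in DPAn-6 replicates 1 to 5. CTRL replicate 3 was again apart, here as the lowest mouse. The log2 fold change was 0.04 with a standard error of 0.10 (edgeR, adjusted p = 0.911, exact permutation p = 0.683), and it was −0.02 without that mouse.

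Ncstn (ENSMUSG00000003458, chromosome 1, 172066013 to 172082795) had 79.9, 80.3, 79.6, 78.3, 79.1, 80.0 and 84.3 CPM in CTRL replicates 1 to 7 and 83.9, 75.7, 79.2, 70.7 and 82.4 CPM in DPAn-6 replicates 1 to 5. On the log2 CPM scale its CTRL mice were the closest together of the 9 genes, with an SD of 0.034, and 2 of the 5 DPAn-6 mice lay below all CTRL mice and none above. Its log2 fold change was −0.06 with a standard error of 0.06 (edgeR, adjusted p = 0.723, exact permutation p = 0.398).

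Aph1a (ENSMUSG00000015750, chromosome 3, 95893969 to 95898288) had 8.78, 6.34, 7.30, 8.25, 6.97, 5.93 and 5.78 CPM in CTRL replicates 1 to 7 and 5.87, 6.56, 7.19, 6.58 and 6.56 CPM in DPAn-6 replicates 1 to 5. The DPAn-6 mice lay inside the CTRL range. The log2 fold change was −0.13 with a standard error of 0.12 (edgeR, adjusted p = 0.705, exact permutation p = 0.424). Aph1a shares 12.9% of its exon bases with Car14, and Ncstn shares 4.91% with Copa, both on the opposite strand.

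Thy1 (ENSMUSG00000032011, chromosome 9, 44043384 to 44048579) had 2631, 1988, 3469, 2459, 2108, 2167 and 2423 CPM in CTRL replicates 1 to 7 and 2699, 2822, 2248, 2381 and 3050 CPM in DPAn-6 replicates 1 to 5. The highest and the lowest mouse were both CTRL, replicates 3 and 2. For Thy1 the log2 fold change was 0.07 with a standard error of 0.13 (edgeR, adjusted p = 0.859, exact permutation p = 0.436). Without CTRL replicate 3 it was 0.18, with an unadjusted p of 0.0318 and an adjusted p of 0.173 in edgeR. It was 0.023 without DPAn-6 replicate 5, 0.026 without CTRL replicate 2 and 0.017 after removal of the length and GC trend.

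**Figure D2:**
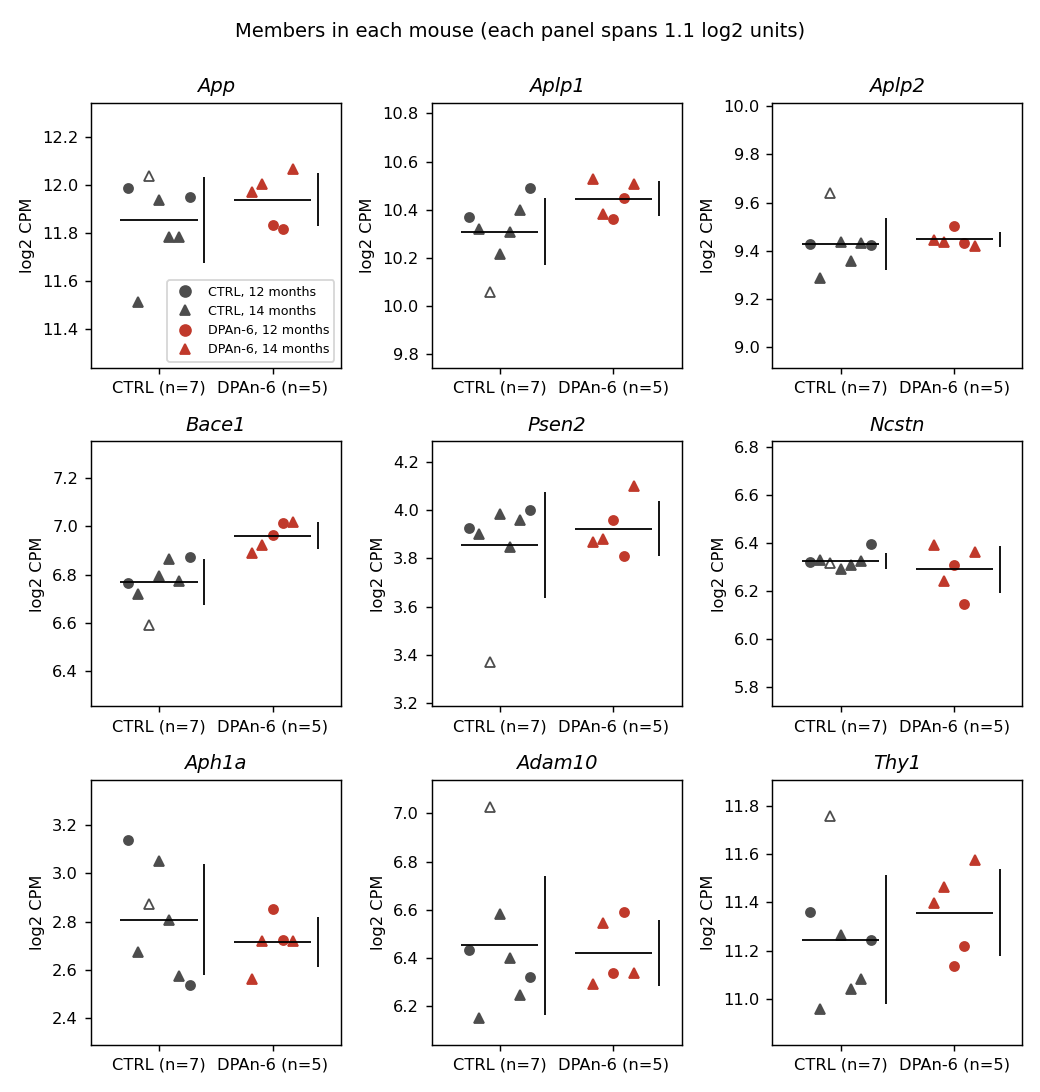
Log2 CPM of the 9 genes in each mouse, with CTRL in grey and DPAn-6 in red, circles for 12 months and triangles for 14 months, and the open triangle for CTRL replicate 3. Horizontal lines are group means, vertical bars are ±1 SD, and only in the Bace1 panel do the 5 DPAn-6 mice all lie above the 7 CTRL mice.

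**Figure D3:**
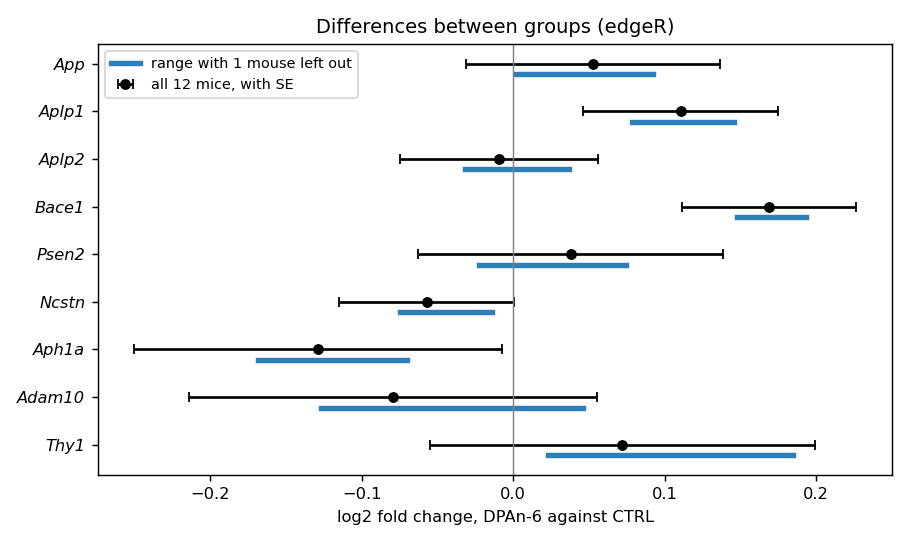
Log2 fold change of DPAn-6 against CTRL for the 9 genes from edgeR, with the standard error in black and the range of the estimate when each mouse is left out in turn in blue. Bace1 has the highest estimate, 0.17 with a left-out range of 0.15 to 0.19, and the blue ranges of Aplp2, Psen2 and Adam10 cross 0.

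Markers of the cell types that hold these mRNAs differed in their own way between the groups. The summed level of 12 neuron markers overlapped. So did that of 8 markers of deep layer projection neurons, with 453 to 635 CPM in CTRL and 523 to 618 CPM in DPAn-6 mice. Of the 12 neuron markers, 10 had a log2 fold change above 0, and 2 were higher with no overlap, against 1.73% of all genes. At an unadjusted p below 0.05 in edgeR, 2 of the 12 were higher and 2 lower, against 5.51% and 9.02%. The summed level of 9 microglia markers was lower in DPAn-6 mice with no overlap (871 to 1235 CPM in CTRL, 648 to 853 CPM in DPAn-6), and 2 of the 9 passed at an adjusted p below 0.05 in edgeR, both lower, against 1.14% of all genes lower at that threshold. Taken singly, 0 of these 9 markers were lower with no overlap, against 1.49% of all genes tested, a share that does not apply to a sum. The 7 oligodendrocyte markers summed to 5129 to 6782 CPM in CTRL and 6013 to 6850 CPM in DPAn-6 mice. Of these 7, 4 were higher and 0 lower at an unadjusted p below 0.05 in edgeR, against 5.51% and 9.02% of all genes, and 0 passed at an adjusted p below 0.05. At the same unadjusted threshold, 0 of 7 astrocyte markers were higher and 2 lower, and 1 of 5 striatal neuron markers was higher and 0 lower. The summed level overlapped between the groups for every list but that of microglia. The choroid plexus markers ranged from 12.7 to 1661 CPM in CTRL and from 7.51 to 22.9 CPM in DPAn-6 mice. No marker list had all of its genes at 0, and the part of these shifts in the Bace1 difference was not tested beyond the fit with Ttr as covariate, where the log2 fold change of Bace1 was 0.15 (edgeR, unadjusted p = 0.0722).

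Age was then compared at a common group effect. At an adjusted p below 0.05 in edgeR, 0 of the 9 genes differed between 14-month and 12-month mice, against 0.00% of all genes, and at an unadjusted p below 0.05 0 of the 9 did, against 1.78% of all genes. DESeq2 was not run for this comparison. The largest age difference among them was that of Thy1, 0.11 on the log2 scale with a standard error of 0.14. The group difference at each age was next set side by side. App differed by −0.14 at 12 months and by 0.20 at 14 months between the group means of log2 CPM, Thy1 by −0.13 and 0.26, and Aplp1 by −0.02 and 0.21. Bace1 differed by 0.17 and 0.20, so that its difference had the same sign at both ages. At 12 months both CTRL mice were Xist-high and both DPAn-6 mice were Xist-low. Group and sex therefore cannot be told apart at that age. At 14 months all DPAn-6 mice were Xist-high, while CTRL replicates 4, 5 and 6 were Xist-low. A change of these differences with age cannot be told apart from sex. The interaction of group and age passed for 0 of the 9 genes at an adjusted p below 0.05, against 0.00637% of all genes, and at an unadjusted p below 0.05 also for 0 of 9, against 4.26%. The lowest was that of App, with an interaction of 0.31, a standard error of 0.17 and an unadjusted p of 0.102 in edgeR (adjusted p = 0.905).

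The 7 Xist-high and 5 Xist-low libraries were compared as well, with group as a term, a comparison added after the data were seen. Thy1 was higher in the Xist-high libraries by 0.27 on the log2 scale with a standard error of 0.11 (edgeR, unadjusted p = 0.0334, adjusted p = 0.941), and App by 0.11 with a standard error of 0.08 (adjusted p = 1.00). Among the 9 genes 0 passed at an adjusted p below 0.05, against 0.0574% of all genes, and 1 of 9, Thy1, at an unadjusted p below 0.05, against 5.17%. Mean log2 CPM of Thy1 was 11.33 in 4 Xist-high and 11.13 in 3 Xist-low CTRL mice, and 11.48 in 3 Xist-high and 11.18 in 2 Xist-low DPAn-6 mice.

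How the genes varied together across the mice was described by Pearson's r of TMM-scaled log2 CPM over the 12 mice, which share 1 tissue and 1 preparation but differ in depth and composition. App and Thy1 varied together. Their r was 0.88 over 12 mice, 0.88 with each group centred on its mean, 0.86 within the 7 CTRL mice and 0.90 within the 8 mice of 14 months, and Spearman's rho was 0.97. Without CTRL replicates 2 and 3, the libraries farthest from the median of App, r was 0.94, and without CTRL replicates 2, 3 and 5 it was 0.92 over 9 mice. After the length and GC trend of each library was removed, r of App and Thy1 over all 12 mice fell to 0.35. In CTRL replicate 3 that trend was 0.30 for App and −0.34 for Thy1, so its removal moved these genes in opposite directions there. No trend-removed r without that library was computed, so how far the fall rested on it was not tested. Among 15687 other genes tested, Thy1 had rank 6 by r with App, and App had rank 10 by r with Thy1.

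In each of the 12 libraries App lay above Thy1 by counts, and the difference of their log2 CPM was 0.63, 0.56, 0.28, 0.67, 0.74, 0.70 and 0.71 in CTRL replicates 1 to 7 and 0.57, 0.54, 0.70, 0.60 and 0.49 in DPAn-6 replicates 1 to 5. The difference was smallest in CTRL replicate 3. Its mean was 0.61 ± 0.16 in CTRL (SD, n = 7) and 0.58 ± 0.08 in DPAn-6 mice (SD, n = 5), and the groups overlapped.

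Before removal of the length and GC trend, the paralogs of App did not follow the same pattern. App and Aplp2 had an r of 0.66 over 12 mice, which was 0.07 without CTRL replicates 2 and 3 and −0.34 without CTRL replicates 2, 3 and 5, so it rested on those libraries. App and Aplp1 had an r of −0.02, which was 0.38 without CTRL replicate 3. After the trend was removed, r was 0.27 for App and Aplp2 and 0.41 for App and Aplp1. That of App and Thy1 was 0.35, so the contrast with Thy1 was not seen after removal over all 12 mice, CTRL replicate 3 included. Whether it was seen without that library was not tested. Log2 CPM of App minus Aplp2 was 2.43 ± 0.12 in CTRL and 2.49 ± 0.13 in DPAn-6 mice (SD, n = 7 and 5), and that of App minus Aplp1 was 1.55 ± 0.25 and 1.49 ± 0.10.

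**Figure D4:**
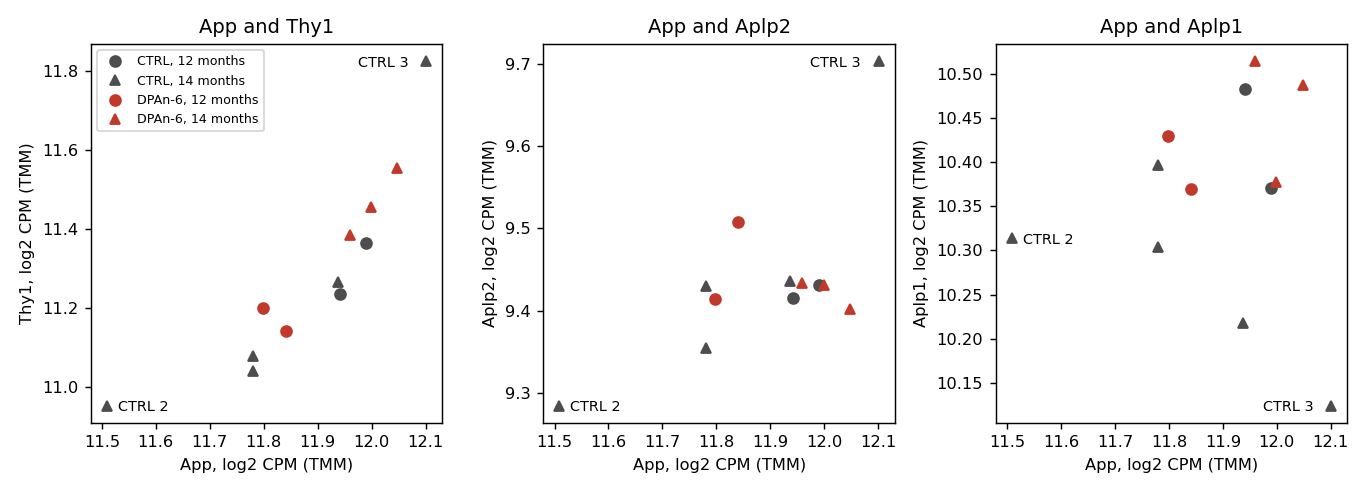
TMM-scaled log2 CPM of App on the x axis against Thy1, Aplp2 and Aplp1 on the y axes, with 1 point per mouse, colours by group and shapes by age. The 12 mice lie along a rising line for Thy1 (r = 0.88). The relation with Aplp2 is set by CTRL replicates 2 and 3 (r = 0.07 without them), and none is seen with Aplp1 on this scale (r = −0.02). After removal of the length and GC trend, not drawn, r over all 12 mice, CTRL replicate 3 included, was 0.35 for Thy1, 0.27 for Aplp2 and 0.41 for Aplp1.

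Of the 36 pairs among the 9 genes, 4 had an r above 0.7 and 1 had an r below −0.7. Aplp2 and Adam10 had an r of 0.82, which was 0.38 without CTRL replicate 3. Adam10 and Thy1 had 0.72, which was 0.36 without it, and Aplp2 and Thy1 had 0.74, which was 0.42 without it. Psen2 and Adam10 had an r of −0.80, which was −0.25 without that library. App and Thy1 had 0.90 without it. After removal of the length and GC trend the order of these pairs was different. The r was then 0.82 for Adam10 and Thy1, 0.80 for Aplp2 and Thy1 and 0.58 for Aplp2 and Adam10. It was −0.35 for Psen2 and Adam10 and 0.35 for App and Thy1. The highest of the 36 pairs was then Aplp1 and Thy1 with 0.83, from −0.21 before removal. Aplp1 and Aplp2 had 0.82, from −0.48. No trend-removed r without CTRL replicate 3 is given, where the trend was 0.42 for Adam10 and −0.34 for Thy1.

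The genes most like App in pattern over the 12 mice were Tppp (r = 0.94), which encodes a tubulin polymerization protein of oligodendrocytes, Gm39822 (r = 0.93), Sptssa (r = 0.92), a small subunit of serine palmitoyltransferase, Th (r = 0.92), the rate-limiting enzyme of catecholamine synthesis, and Cycs (r = 0.91), cytochrome c. Those most like Thy1 were Tppp (r = 0.93), Casp4 (r = 0.92), Cebpz (r = 0.92), Bex4 (r = 0.90) and Spg20 (r = 0.90). Tppp led both lists, and its own log2 fold change was 0.03 (edgeR, adjusted p = 0.882).

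The 9 genes were set in the wider pathway by a list of 132 genes in 8 groups, of which 130 were in the table and 128 were tested. At an adjusted p below 0.05 in edgeR, 3 of the 128 were higher in DPAn-6 mice, against 0.408% of all genes, and 2 were lower, against 1.14%. At an unadjusted p below 0.05, 10 were higher and 15 lower, against 5.51% and 9.02% of all genes. The median log2 fold change of the list was −0.0057, and that of all genes tested was −0.0047.

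Neither of the secretase groups outside the 9 genes held a gene past the threshold in edgeR, and at an unadjusted p below 0.05 each held 1 gene, higher in DPAn-6 mice, against 5.51% of all genes. Among 6 gamma-secretase subunits and partners the log2 fold changes ran from −0.13 for Aph1b, the paralog of Aph1a, to 0.20 for Psenen, the presenilin enhancer subunit, which had only 13 to 47 counts per mouse. Among 7 other secretases they ran from −0.14 for Adam17, an alpha-secretase that also sheds tumour necrosis factor, to 0.28 for Adamts4, a metalloprotease made by oligodendrocytes (edgeR, adjusted p = 0.241).

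Secretase regulators held 2 of the genes that fell. Timp3, a secreted inhibitor of ADAM and matrix metalloproteases, had 7.01 to 7.45 log2 CPM in CTRL and 6.65 to 6.93 in DPAn-6 mice, with a log2 fold change of −0.45 and a standard error of 0.09 (edgeR, adjusted p = 0.0282). Reck, a membrane-anchored inhibitor of metalloproteases including ADAM10, had 4.03 to 4.23 log2 CPM in CTRL and 3.62 to 3.97 in DPAn-6 mice, with a log2 fold change of −0.38 and a standard error of 0.08 (edgeR, adjusted p = 0.0398). In both genes all 5 DPAn-6 mice lay below all 7 CTRL mice, as in 1.49% of all genes tested. Reck missed the threshold without TMM (adjusted p = 0.0558) and without a filter (adjusted p = 0.110), and for 10 of the 12 mice when that mouse was left out, the exceptions being CTRL replicates 3 and 7 (adjusted p from 0.0146 to 0.146). Timp3 missed it without CTRL replicate 5 and without each DPAn-6 mouse (adjusted p from 0.00737 to 0.112), and its log2 fold change was −0.25 with Ttr as covariate and −0.30 without CTRL replicates 2, 3 and 5. The other 16 regulators tested did not pass. At an unadjusted p below 0.05 in edgeR, 1 of the 18 was higher and 3 were lower, against 5.51% and 9.02% of all genes. The higher one was Tspan5, with a log2 fold change of 0.20 (edgeR, adjusted p = 0.105) and no overlap of the groups. Besides Timp3 and Reck, the lower one was Rhbdf2, with −0.52 (adjusted p = 0.154).

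The genes that rose came from 3 other groups. Sorcs3, a sorting receptor of the Vps10p family, had 5.66 to 5.91 log2 CPM in CTRL and 6.16 to 6.33 in DPAn-6 mice, with a log2 fold change of 0.40 and a standard error of 0.06 (edgeR, adjusted p = 0.00551), the 1 call among 30 adaptors and trafficking genes. Cx3cl1, the neuronal chemokine fractalkine that ADAM10 and ADAM17 shed from the membrane, had 9.13 to 9.70 log2 CPM in CTRL and 9.86 to 10.05 in DPAn-6 mice, with a log2 fold change of 0.39 (edgeR, adjusted p = 0.0193), the 1 call among 20 other secretase substrates. Nrn1, neuritin, a GPI-anchored neuronal protein like Thy1, had 6.90 to 7.29 log2 CPM in CTRL and 7.39 to 7.77 in DPAn-6 mice, with a log2 fold change of 0.42 (edgeR, adjusted p = 0.0260), the 1 call among 14 such genes. In all 3 every DPAn-6 mouse was above every CTRL mouse. Over the list 4 of 128 genes were higher and 2 lower with no overlap, against 1.73% and 1.49% of all genes. The 5 called genes were picked by adjusted p in the same mice, so their lack of overlap is not separate evidence. Sorcs3 passed with any 1 mouse left out, while Cx3cl1 missed the threshold without DPAn-6 replicates 1, 3 or 5 and Nrn1 without CTRL replicates 1 or 6 or DPAn-6 replicates 1, 2, 3 or 4. The calls of the list, including Timp3 and Reck, were lost with Ttr as covariate, in the 14-month mice alone and with the replicate number as a block, where 0 of the list passed, and with 1 mouse left out the list held from 1 call, without DPAn-6 replicate 1 or 3, to 15, without CTRL replicate 3.

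Genes of amyloid-beta degradation and clearance held no call in edgeR at the adjusted threshold, and at an unadjusted p below 0.05 1 degradation gene was higher, 3 were lower, and 4 clearance genes were lower, against 5.51% of all genes higher and 9.02% lower. Of 16 degradation genes tested, the highest was Ece1, endothelin-converting enzyme, with a log2 fold change of 0.27 (edgeR, adjusted p = 0.100), and the lowest was Ace, angiotensin-converting enzyme, with −1.14 (adjusted p = 0.0877). Of 17 binding and clearance genes, the highest was Serpina3n, an astrocyte protease inhibitor, with 0.41 (edgeR, adjusted p = 0.345), and the lowest was Ttr, with −6.01 (adjusted p = 0.0553), whose CTRL values ranged from 2.59 to 10.58 log2 CPM.

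**Figure D5:**
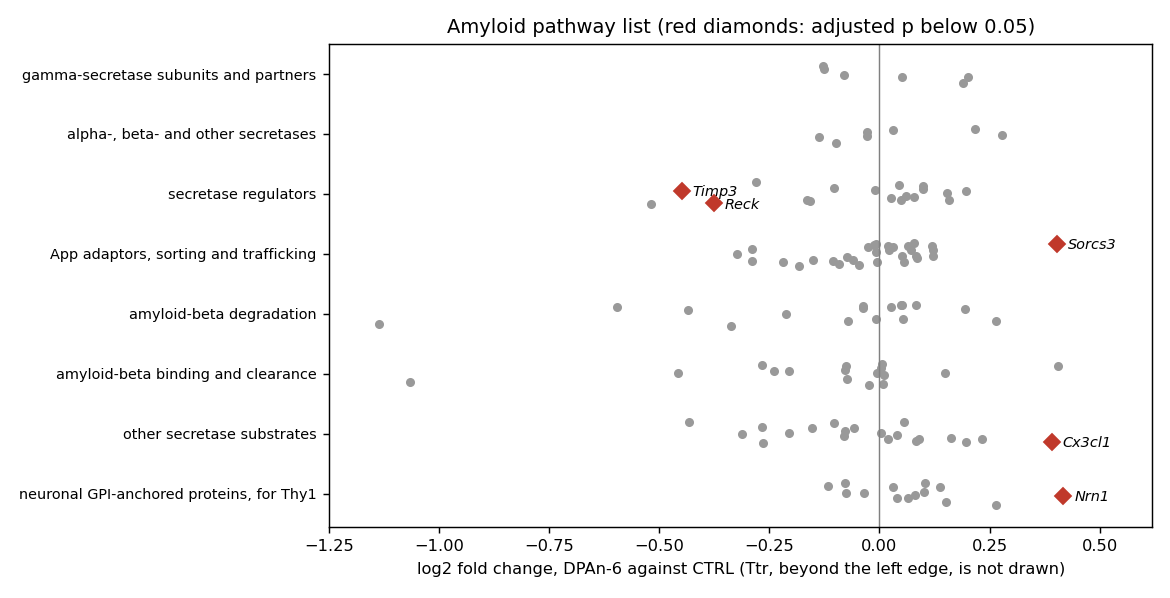
Log2 fold changes of DPAn-6 against CTRL for the tested genes of the amyloid pathway list in 8 groups, with 1 point per gene and the 5 genes with an adjusted p below 0.05 in edgeR as red diamonds. Most points lie around 0, Timp3 and Reck lie to the left at −0.45 and −0.38, Sorcs3, Cx3cl1 and Nrn1 lie to the right near 0.40, and Ttr is left out of the drawing.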

How the data were processed

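The cortex of 12 E4FAD mice was profiled by RNA-Seq, with 1 library per mouse. The authors aligned poly(A) RNA reads with STAR to GRCm38 and deposited raw counts per gene, with no normalization. Identifiers were matched to symbols and exon lengths in GENCODE M21, and promoter windows came from RefSeq. CPM and log2 CPM (pseudocount 0.5) were computed from the deposited counts. Groups were compared with edgeR 4.0.16 in R 4.3.3 (TMM, filterByExpr, glmQLFit, glmQLFTest, Benjamini-Hochberg over 15688 genes) and, for single genes, with a two-sided exact permutation test over 792 splits. Mice were the replicates. The alternatives used DESeq2 1.42.0, limma-voom 3.58.1, other scalings and filters, covariates, the length and GC trend (loess, span 0.3), and each mouse left out. In 5 simulated data sets (200 genes, log2 change of 1), edgeR recovered 91.0% of the changed genes and 5.19% of its calls were false.

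The members and lists were chosen with earlier results of these data known. The genes named are the members, the called genes of each pathway group or otherwise its highest and lowest, the 5 genes most like App and Thy1, and genes that bear on a result.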

Additional observations from a re-analysis of the deposited data

Results flagged for a closer look

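Each gene was screened in each group for a mouse far from the others by Dixon's test, 18 groups of values in all, and 3 were picked out. Chance picks out about 1 in 20 groups. All 3 were CTRL mice. Psen2 was low in CTRL replicate 3, with 3.37 log2 CPM and a ratio of gap to range of 0.754. Aplp2 was high in the same mouse, with 9.64 log2 CPM and a ratio of 0.583. Ncstn was high in CTRL replicate 7, with 6.40 log2 CPM and a ratio of 0.667.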

How the results depend on the processing

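Under 25 alternatives for each of the 9 genes, 208 estimates kept direction and side of the threshold, 15 turned in sign and 2, both of Bace1, passed the threshold. With Ttr as covariate App was −0.0551 and Psen2 −0.0161. Aplp2 was 0.0152 without TMM, 0.00914 without a filter, 0.0182 with the length and GC trend removed and 0.0310 with that removal and the replicate block. Without CTRL replicates 2, 3 and 5, chosen after the data were seen for their Ttr counts, Aplp2 was 0.00127, Psen2 −0.0533 and Adam10 0.00619. With 1 mouse left out Aplp2 ranged from −0.0315 to 0.0372, Psen2 from −0.0223 to 0.0744 and Adam10 from −0.127 to 0.0463, each reversed without CTRL replicate 3, Psen2 also without DPAn-6 replicate 5, and Aplp2 also without DPAn-6 replicates 4 or 5. The cause was not tested.

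The number of the 9 genes past the threshold was 0, and 1 with DESeq2 or with the length and GC trend removed. For the pathway list it was 5, and 11 with DESeq2, 11 with the trend removed, 11 without CTRL replicates 2, 3 and 5, and 0 with Ttr as covariate, in 14-month mice only or with the replicate block, and 1 to 15 with 1 mouse left out. For all genes it was 243, and 673 with DESeq2, 577 with the trend removed, 541 without CTRL replicates 2, 3 and 5, 17 with Ttr as covariate, 9 in 14-month mice only, 69 with the replicate block, and 64 to 953 with 1 mouse left out, highest without CTRL replicate 3. Same-numbered mice deviated together with r from −0.12 to 0.22 and differed in age in 3 of 5 pairs, so the numbers were not taken as pairs. With the block Bace1 was 0.19 (edgeR, adjusted p = 0.355). Aph1a had the fewest counts of the 9 genes, 99 to 174 per mouse.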

Other observations

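The trend of each library on exon length and GC content was estimated over all genes, and for each of the 9 genes but Bace1 its value farthest from 0 was in CTRL replicate 3. There it was 0.30 on the log2 scale for App, −0.48 for Aplp1 and −0.27 for Psen2, while the other 11 libraries stayed between −0.13 and 0.07 for App. For Thy1 the trend was −0.34 in CTRL replicate 3, although its 3469 CPM there was the highest of the 12 mice, and for Bace1 it stayed between −0.05 and 0.05 in every library.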
